A study of Mus musculus with 3 samples.

Results

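The class I major histocompatibility complex (MHC) genes B2m, H2-K1, H2-D1, H2-Q4, H2-Q6, H2-Q7, H2-T22, H2-T23 and H2-M3 were examined in macrophages exposed to Lipid A on 2 occasions. The 9 genes are the light chain B2m and 8 heavy chains, chosen by symbol from the 55536 annotated genes and matched by symbol in the transcript tables and by gene identifier in the gene table. The cells were macrophages grown from bone marrow of C57BL/6J mice, a strain that carries the b haplotype of the mouse MHC. They received 100 ng/ml Lipid A (the lipid portion of bacterial lipopolysaccharide, which acts through the receptor TLR4) for 12 h, were kept free of it for 12 h, and received 100 ng/ml again for 90 min. Ribosomal RNA was removed from the total RNA of the cytosolic fraction before 3 libraries were made, and the labels number them as biological replicates 1 to 3. All 3 carry the same donor record, the sex and age of the animals were not collected, and the libraries form 1 group. The values below are therefore levels in twice-exposed cells. Unexposed or singly exposed cells were not analysed here, and no response to Lipid A can be read from these levels.

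A class I molecule is a heavy chain, anchored in the membrane in most cases, that pairs with the soluble light chain beta-2 microglobulin. It usually, but not always, carries a short peptide cut from cytosolic proteins. The classical heavy chains H2-K1 and H2-D1 (H-2K and H-2D) show such peptides to cytotoxic T cells, and the nonclassical ones of the Q, T and M regions have narrower roles. In macrophages the genes are known targets of interferon signalling, of NF-kappaB and of the transactivator Nlrc5, which acts through promoter elements that class I genes and B2m share.

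The sequences below are promoter stretches with matches to interferon or NF-kappaB elements. They cover the light chain, both classical heavy chains and 3 of the nonclassical genes. They come from RefSeq windows of build GRCm38.p6, from 250 bases before to 50 after the annotated start of each gene. Capitals mark a form of the interferon-stimulated response element (ISRE) and, in all but H2-T23, the nearest match to the NF-kappaB consensus. The form searched first was the class I form, the 10 bases of the last run of capitals in the H2-K1 line. The other was the general form, GAAA, any 2 bases and GAAA, which is the first run in the B2m line and, on the opposite strand, the run in the H2-T23 line. All motifs were searched on both strands.
B2m, plus strand, chr2:122147538-122147580: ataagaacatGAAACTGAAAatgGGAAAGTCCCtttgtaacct
H2-K1, minus strand, chr17:34000420-34000467: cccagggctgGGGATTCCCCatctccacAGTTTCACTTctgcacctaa
H2-D1, plus strand, chr17:35262914-35262961: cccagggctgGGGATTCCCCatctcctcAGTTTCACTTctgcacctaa
H2-Q7, plus strand, chr17:35439012-35439059: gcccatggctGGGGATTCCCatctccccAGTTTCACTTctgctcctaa
H2-T22, minus strand, chr17:36042916-36042965: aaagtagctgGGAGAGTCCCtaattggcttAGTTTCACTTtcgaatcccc
H2-T23, minus strand, chr17:36032806-36032835: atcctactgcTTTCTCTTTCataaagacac

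The class I form of the ISRE was present in the windows of 6 of the 9 genes (H2-K1, H2-D1, H2-Q4, H2-Q6, H2-Q7 and H2-T22) and in 46 of all 32817 promoter windows (0.140%). Its first base stood at position -193 (H2-T22) to -92 (H2-K1) from the RefSeq start. The general form was found in 3 members (B2m, H2-T22 and H2-T23) and in 3.43% of all windows. In H2-T22 it overlapped the class I form, and H2-M3 had neither. The NF-kappaB consensus had a match in 8 members, all but H2-T23, and in 8.46% of all windows. In H2-K1, H2-D1, H2-Q4 and H2-Q6 a pair of such matches overlapped, shifted by 1 base. A window with both the class I form and the NF-kappaB consensus was found for 6 members and for 12 of all windows (0.0366%). TGATGAC, searched as the core of the X2 box of MHC promoters, was in 6 members (H2-D1, H2-Q4, H2-Q6, H2-Q7, H2-T22 and H2-M3) and in 3.23% of windows. The short CCAAT box was in all 9 members and in 37.4% of windows. The RefSeq starts of H2-D1 and H2-T23 lie 364 and 154 bases inside the GENCODE gene, and those of the other members lie within 14 bases of its start. H2-K1 had 2 RefSeq windows, and the window nearest the GENCODE start was used. Positions depend on the annotated start chosen for each gene. The class I form is a form of class I promoters, so finding it in class I genes was in part fixed by its choice. The heavy chains resemble each other in sequence, so their matches are not independent. The counts over all windows include the members, and no enrichment can be read from them. Matches are letters only, and binding was not measured.

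**Figure D1:**
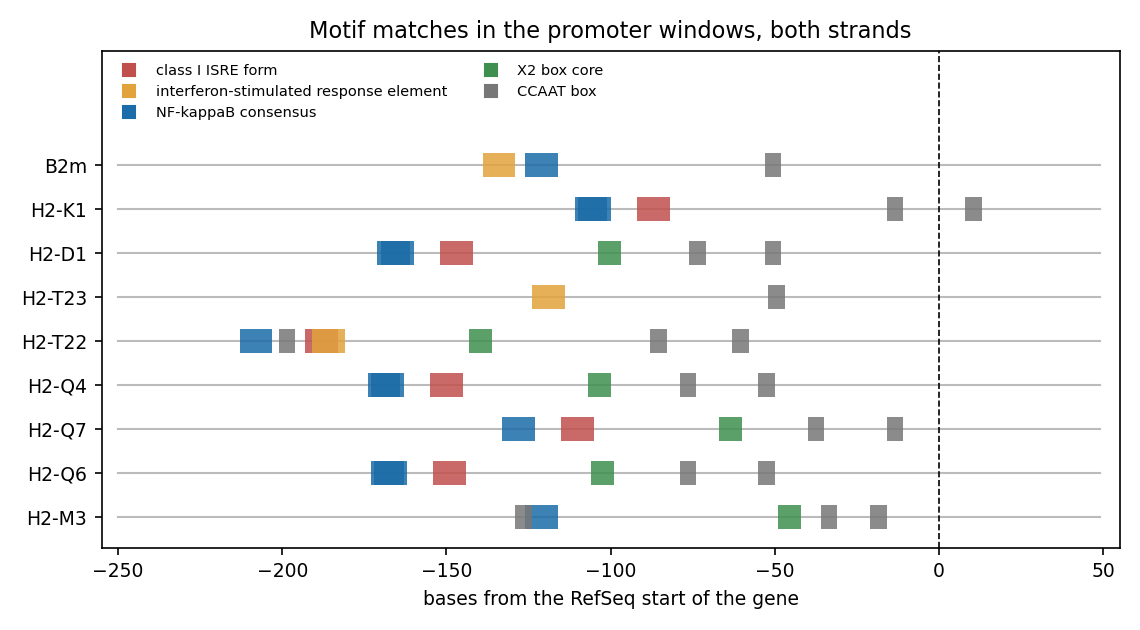
Matches to 5 motifs on either strand in the promoter window of each member, in bases from the RefSeq start (dashed line); boxes have the length of the motif and members are ordered by mean TPM from the top. In the 6 members that hold the class I form of the ISRE, the NF-kappaB match lies upstream of it.

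All 9 genes were detected at 1 TPM or more in each library (TPM is a length-corrected abundance that sums to the same total in every library). By this rule, also used for the gene lists below, 8826 nuclear protein-coding genes were detected. The 55536 annotated genes are of all types and detected genes of other types were not counted, so these numbers form no share. Detection alone does not set the members apart. B2m and the classical heavy chains were among the most abundant protein-coding transcripts. By mean TPM of the gene table, B2m ranked 6th, H2-K1 11th and H2-D1 13th among nuclear protein-coding genes, H2-T23 ranked 99th, and the lowest member, H2-M3, ranked 1254th. Together the 9 genes took 2.90 ± 0.0736% of the TPM of nuclear protein-coding genes and 1.44 ± 0.0141% of annotated counts (SD, n = 3). The libraries held 40637857 to 70407572 expected counts in annotated genes, so that even H2-M3 rested on 3239, 5218 and 3554 counts in replicates 1, 2 and 3. In bulk RNA, fewer cells with a transcript and less of it per cell cannot be told apart.

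B2m (ENSMUSG00000060802.8, chr2:122147686-122153083, plus strand, build GRCm38), the light chain that every heavy chain below pairs with, had 4360, 3441 and 3424 TPM in replicates 1, 2 and 3. Replicate 1 was the highest and the others were nearly equal. H2-K1 (ENSMUSG00000061232.16, chr17:33996017-34000347, minus strand) had 2427, 2323 and 2423 TPM in replicates 1, 2 and 3. Its coefficient of variation of 2.46% was the lowest of the 9 genes on this scale. Rescaled to the summed TPM of nuclear protein-coding genes, it was 8.52%, above the median of 6.52% over the members. H2-D1 (ENSMUSG00000073411.11, chr17:35262730-35267499, plus strand) had 1718, 1736 and 1603 TPM in replicates 1, 2 and 3. It was the only member that was not highest in replicate 1.

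The nonclassical genes, all on chromosome 17, formed a second tier. H2-T23 (ENSMUSG00000067212.8, chr17:36029773-36032855, minus strand) encodes the heavy chain of Qa-1, which presents leader peptides of other class I chains to receptors of natural killer cells. It had 354, 293 and 298 TPM in replicates 1, 2 and 3. H2-T22 (ENSMUSG00000056116.18, chr17:36037128-36042747, minus strand), a ligand of some gamma delta T cells, had 281, 205 and 231 TPM in the same order. H2-Q4 (ENSMUSG00000035929.11, chr17:35379617-35385290, plus strand), a nonclassical gene of the Q region, had 226, 176 and 174 TPM. All 3 of these genes were highest in replicate 1.

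H2-Q7 (ENSMUSG00000060550.16, chr17:35439155-35443773, plus strand) and H2-Q6 (ENSMUSG00000073409.12, chr17:35424850-35430055, plus strand) are neighbouring Q region genes of the Qa-2 family, whose products can be held by a lipid anchor. H2-Q7 had 89.8, 80.9 and 77.1 TPM in replicates 1, 2 and 3. H2-Q6 had 93.4, 80.5 and 67.7 TPM in the same order, a range that overlaps that of H2-Q7. H2-M3 (ENSMUSG00000016206.6, chr17:37270220-37274484, plus strand) presents peptides that begin with N-formyl methionine, a mark of bacterial and mitochondrial proteins. It had the lowest level of the 9, with 43.3, 36.2 and 33.4 TPM in replicates 1, 2 and 3.

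**Figure D2:**
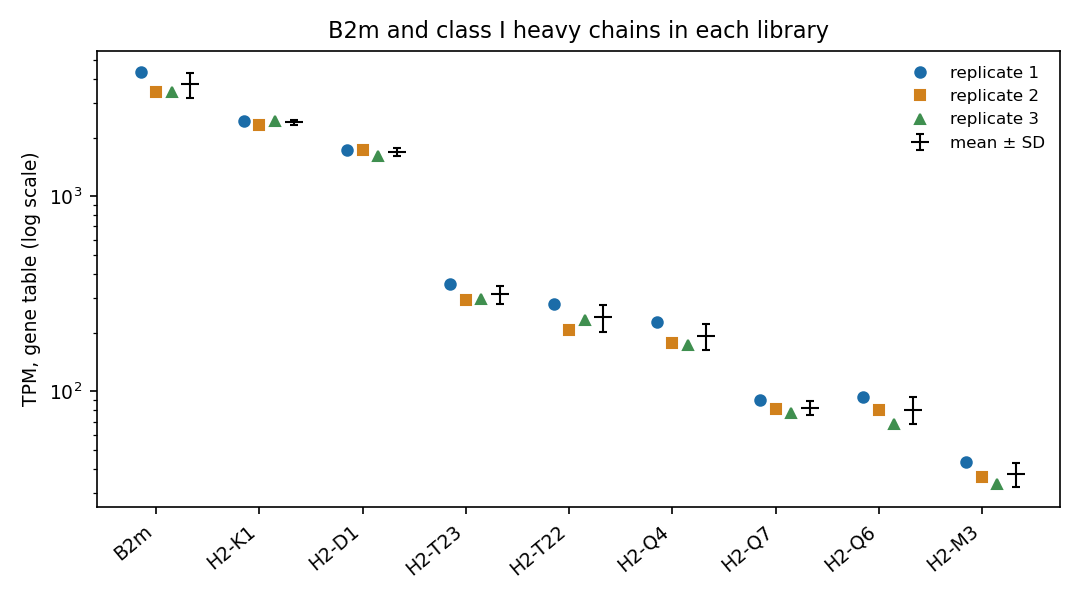
TPM of the gene table on a log axis for each member in each library (coloured points), with the mean and SD of the 3 libraries (black), ordered by mean. B2m, H2-K1 and H2-D1 lie at 1603 TPM or more and the 6 nonclassical genes at 354 TPM or less in each library.

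Neighbours in the order of mean TPM were called separated where the log2 ratio had the same sign in all 3 libraries and its mean exceeded its SD. This held for 7 of the 8 neighbouring pairs, and no test is attached because the exact two-sided sign-flip test over 3 libraries cannot go below p = 0.25. The widest step was the one from H2-D1 to H2-T23, with a log2 ratio of 2.43 ± 0.14 (SD, n = 3), or 5.37-fold. B2m exceeded H2-K1 by a log2 ratio of 0.64 ± 0.18, and H2-T23 exceeded H2-T22 by 0.40 ± 0.10. H2-T22 exceeded H2-Q4 by 0.32 ± 0.09, and H2-Q4 exceeded H2-Q7 by 1.21 ± 0.11. H2-Q7 and H2-Q6 were not separated, with a log2 ratio of H2-Q6 to H2-Q7 of 0.06, -0.01 and -0.19 in replicates 1, 2 and 3. The pair was not separated in the second transcript table either, where the mean ratio had the opposite sign (0.11 ± 0.12). H2-Q6 exceeded H2-M3 by 1.09 ± 0.07.

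H2-K1 and H2-D1 together made up 81.2 ± 1.72% of the summed heavy chain TPM (79.2, 82.3 and 82.0% in replicates 1, 2 and 3). H2-K1 alone took 47.6 ± 1.57%, H2-D1 33.6 ± 1.42%, H2-T23 6.26 ± 0.443%, H2-T22 4.75 ± 0.607% and H2-Q4 3.81 ± 0.442%. H2-Q7, H2-Q6 and H2-M3 each took less than 2%. The summed heavy chains had 5233, 4931 and 4906 TPM in replicates 1, 2 and 3, and B2m had 0.833, 0.698 and 0.698 times that sum in the same order. On the log2 scale the ratio of B2m to the summed heavy chains was -0.43 ± 0.15 (SD, n = 3).

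On TPM, which of the classical genes was higher, and whether B2m was separated from the summed heavy chains, depended on whether 1 short transcript of H2-K1 was included. With it, H2-K1 stood above H2-D1 by a log2 ratio of 0.50 ± 0.09 in the gene table and 0.35 ± 0.06 in the second transcript table, with the same sign in each library. H2-K1-215, annotated as a retained intron, accounted for 42.8, 48.2 and 50.6% of H2-K1 TPM in replicates 1, 2 and 3 in the first transcript table. It held 34.9, 39.3 and 39.4% in the second. By counts it held only 11.0, 14.1 and 14.8% of the gene in the first table. H2-K1-215 is 457 nt long and its effective length in the first table was 215 to 235 nt, against 1376 to 1396 nt for the coding transcript H2-K1-201.

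The exon structure shows how little of H2-K1-215 is its own. Of its 457 nt, 437 lie in exons 7 and 8 of H2-K1-201, which encode the end of the cytoplasmic tail and the 3′ untranslated region, and 20 nt (chr17:33996655-33996674) are intron before exon 7. Its first exon is shown first, with those 20 bases in capitals. All 427 of its 31-base words occur in other H2-K1 transcripts, and 18 of them are absent from H2-K1-201. The coding parts of exons 7 and 8 follow for H2-K1-201, with the 27 bases skipped by H2-K1-205 in capitals, and for H2-K1-205, all on the minus strand of build GRCm38.
H2-K1-215, chr17:33996616-33996674: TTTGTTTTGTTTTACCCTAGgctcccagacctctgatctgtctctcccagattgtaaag
H2-K1-201, within chr17:33996475-33996654: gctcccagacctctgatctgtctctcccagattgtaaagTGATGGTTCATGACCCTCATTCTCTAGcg
H2-K1-205, within chr17:33996475-33996654: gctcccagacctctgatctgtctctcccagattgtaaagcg

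Without H2-K1-215, H2-K1 had 1388, 1204 and 1196 TPM in replicates 1, 2 and 3, and H2-D1 had 1718, 1736 and 1603 TPM. H2-D1 was then the higher of the classical genes in all 3 libraries, with a log2 ratio of H2-K1 to H2-D1 of -0.42 ± 0.11. The second table gave -0.34 ± 0.10 without that transcript. Protein-coding transcripts alone gave -0.44 ± 0.11 in the first table and -0.35 ± 0.10 in the second. These settings dropped the counts of the excluded transcripts and did not return them to other transcripts of the gene. When every count of a gene was divided by the effective length of its main coding transcript, the ratio was -0.22 ± 0.08. On expected counts, with no correction for length, it was -0.65 ± 0.08. The sign was thus the same across the 3 libraries on each scale and differed between scales. This ratio and the ways of counting it were chosen after seeing the data.

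**Figure D3:**
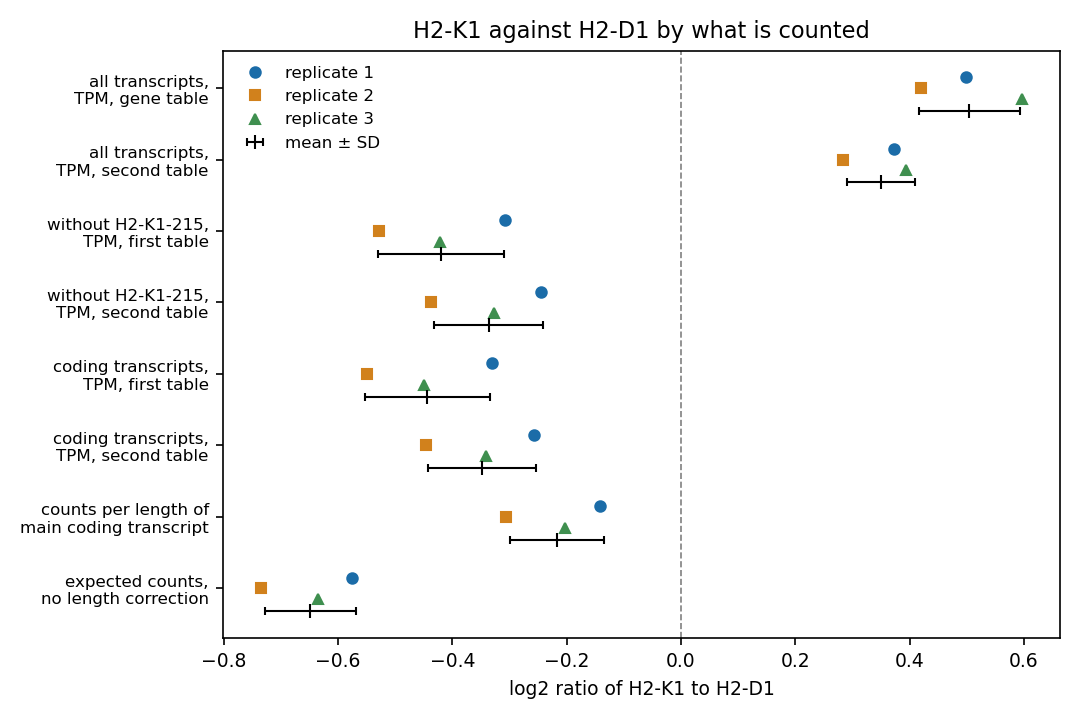
Log2 ratio of H2-K1 to H2-D1 in each library (coloured points) with the mean and SD (black), on 8 ways of counting the same libraries; values right of the dashed line mean more H2-K1. The ratio is positive in all libraries when H2-K1-215 is included in TPM and negative in all libraries on the other 6.

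On TPM the ratio of B2m to the heavy chains moved with the same transcript. Without H2-K1-215 the log2 ratio of B2m to the summed heavy chains was 0.06, -0.15 and -0.10 in replicates 1, 2 and 3, a mean of -0.06 ± 0.11. In the second table it was -0.27 ± 0.13 with the transcript and -0.004 ± 0.10 without it. Over protein-coding transcripts alone it was -0.04 ± 0.11 in the first table and 0.01 ± 0.10 in the second. Without H2-K1-215 and over protein-coding transcripts the mean was smaller than the spread between libraries, and B2m and the summed heavy chains were not separated. With no length correction, the expected counts gave a log2 ratio of -1.43 ± 0.11, with B2m below the summed heavy chains in each library. The share of H2-K1 and H2-D1 in heavy chain TPM was 75.7 ± 1.56% without H2-K1-215.

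A large share of TPM in a short transcript that is not coding was uncommon in these libraries. Over the 8826 detected nuclear protein-coding genes, a median of 1.49% of a gene's TPM lay in transcripts of other types, and the 48.2% of H2-K1 lay at the 95.0th percentile. A transcript of fewer than 500 nt that is not coding held a share as large as that of H2-K1-215 in 34 genes (0.385%). A gap between a transcript's TPM share and its count share as large as the 33.9 percentage points of H2-K1-215 was found in 172 genes (1.95%). These are descriptions across genes, which are not independent replicates.

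H2-Q7 was also split over several transcripts, and here the long transcript took the counts. H2-Q7-204, a coding transcript of 1134 nt, had 53.3, 50.01 and 54.0% of H2-Q7 TPM in replicates 1, 2 and 3 of the first table. H2-Q7-201, of 1497 nt, had 25.5, 28.4 and 26.0% in the same order. H2-Q7-206, a retained intron of 4209 nt, took 19.0 ± 0.501% of TPM but 47.7 ± 0.933% of counts. H2-Q7-204 joins exon 3 to the exon that is exon 6 of H2-Q7-201 and so lacks exons 4 and 5, which in class I genes encode the alpha-3 domain that contacts the light chain and the membrane segment or its anchor signal.

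The second table gave close shares for H2-Q7, with 52.4 ± 3.09% in H2-Q7-204 and 27.3 ± 2.37% in H2-Q7-201. Over protein-coding transcripts alone H2-Q6 exceeded H2-Q7 in each library of both tables, by a log2 ratio of 0.27 ± 0.14 in the first and 0.42 ± 0.12 in the second, a pair not separated on gene TPM. When all counts were divided by the effective length of the main coding transcript, H2-Q7 was instead above H2-Q6 in each library, by 0.86 ± 0.11. That scale divides the counts of H2-Q7-206, 47.7% of the gene, by the shorter length of H2-Q7-204. It therefore raises H2-Q7 by construction. H2-T22 was carried by H2-T22-202 with 63.0 ± 1.75% of TPM and H2-T22-203 with 32.3 ± 1.74% in the first table. In the second table the shares were less uneven, 56.3 ± 1.89% and 40.1 ± 1.96%. These transcripts share all 1137 coding bases and differ at the 5′ end. The other members had 1 main transcript. H2-D1-202 held 94.8 ± 0.323% of H2-D1, H2-Q4-201 95.4 ± 0.410% of H2-Q4 and H2-T23-201 98.8 ± 0.216% of H2-T23. H2-Q6-202 held 100% of H2-Q6, and B2m and H2-M3 have 1 annotated transcript each.

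**Figure D4:**
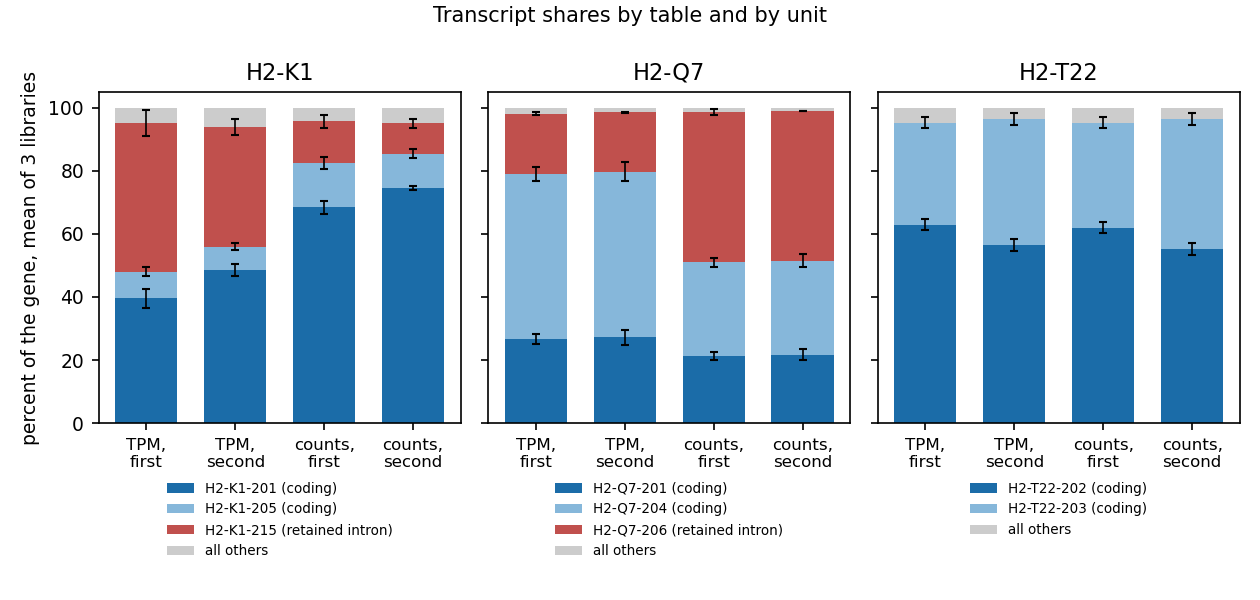
Mean percent of each gene in its main transcripts, by TPM and by counts in the first and second transcript tables; error bars are the SD of 3 libraries for the segment below them and grey is all other transcripts. H2-K1-215 shrinks from TPM to counts and H2-Q7-206 grows, whereas the H2-T22 shares differ little between the units.

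The heavy chains resemble each other in sequence, which limits how well reads can be assigned. H2-Q6 and H2-Q7 were identical at 95.4% of 978 aligned coding bases and H2-K1 and H2-D1 at 91.4% of 1077. H2-M3 was 72.4 to 73.9% identical to the other heavy chains. Of the 31-base words of each gene's transcripts, those found in no transcript of another gene made up 100% for B2m, 95.4% for H2-M3, 77.2% for H2-K1 and 73.1% for H2-D1. The share was 60.8% for H2-Q7, 48.2% for H2-Q6, 47.0% for H2-Q4 and 74.2% for H2-T23. H2-T22 had the lowest, 32.6%, with 47.2% of its words shared with H2-T10 and 27.7% with A930015D03Rik. These shares cover annotated genes alone, and the symbols H2-Q8 and H2-Q9 had none. Whether reads of such genes entered the levels of H2-Q6 and H2-Q7 was not tested. The authors' program gave posterior SDs of the gene counts of at most 0.0953% of the count (H2-Q7, replicate 1), far below the spread between libraries. That SD covers the assignment of reads under its model alone, and levels of H2-Q4, H2-Q6, H2-Q7 and H2-T22 remain less certain than those of B2m.

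The transcript tables were compared after both were rescaled to the summed TPM of nuclear protein-coding genes. Those genes took 28.0 to 33.2% of TPM in the gene table and 15.1 to 17.9% in the second table. For 7SL RNA the shares were 56.4 to 60.6% and 21.9 to 30.1%. Both shares were lower in the second table, and which features took the rest was not examined. On this coding scale the median absolute log2 difference, second table minus first, was 0.0707 over the 9 members and 0.0610 over 8818 detected coding genes. H2-K1 had the largest difference among the members, -0.26 ± 0.04, at the 89.8th percentile of all genes by absolute size. B2m differed by -0.002 ± 0.006 and H2-Q4 by 0.008 ± 0.01. H2-D1, H2-Q7, H2-T22 and H2-T23 were lower in the second table by 0.07 to 0.10, and H2-Q6 and H2-M3 were higher by 0.07 ± 0.02 and 0.06 ± 0.03. On counts all 9 members were higher in the second table, as were 8711 of the 8818 genes.

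No member was called more variable between the libraries than genes of like abundance. In edgeR, with the residual deviance set against the trend of dispersion and Benjamini-Hochberg adjustment, 0 of the 9 members passed an adjusted p of 0.05, against 1.96% of 12256 genes tested. None of the 9 had an unadjusted p under 0.05 either, the lowest being 0.464 for H2-T22. The quasi-likelihood test of edgeR called 0 of all 12256 genes (0%), with 615 at an unadjusted p under 0.05, so its 0 members say nothing of them in particular. The dispersion outliers of DESeq2 held 0 members, against 0.492% of 20932 genes. The coefficient of variation of the members had a median of 13.6% on TPM and 6.52% on the coding scale, beside 10.05% and 10.7% over the 8826 detected coding genes. On the coding scale H2-Q7 had 271, 274 and 276 in replicates 1, 2 and 3, a coefficient of variation of 0.890%, and H2-T22 had 849, 695 and 827, the widest of the 9 at 10.51%. At a share of 1.96% a set of 9 genes would often hold no call, so 0 calls do not set the members apart. With 3 libraries, the absence of a call does not show that the levels were equal.

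Replicate 1 was the highest library for 8 of the 9 members on deposited TPM and for 6 of 9 on the coding scale. In the second table it was the highest for 6 of 9 on TPM and 5 of 9 on the coding scale. How many of all genes were highest in replicate 1 was not counted. The median member stood 0.21 above the mean of the 3 libraries in replicate 1 on the log2 scale of TPM, and 0.07 above it on the coding scale. The same library had the highest interferon response genes, whose median deviated by 0.43 on TPM and 0.29 on the coding scale over 20 genes. Their part in the levels of the members was not tested. On the coding scale H2-K1, H2-D1 and H2-Q7 were lowest in replicate 1, at -0.12, -0.11 and -0.01. Detected coding genes as a whole had a median deviation of 0.05 on TPM and -0.09 on the coding scale in replicate 1.

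**Figure D5:**
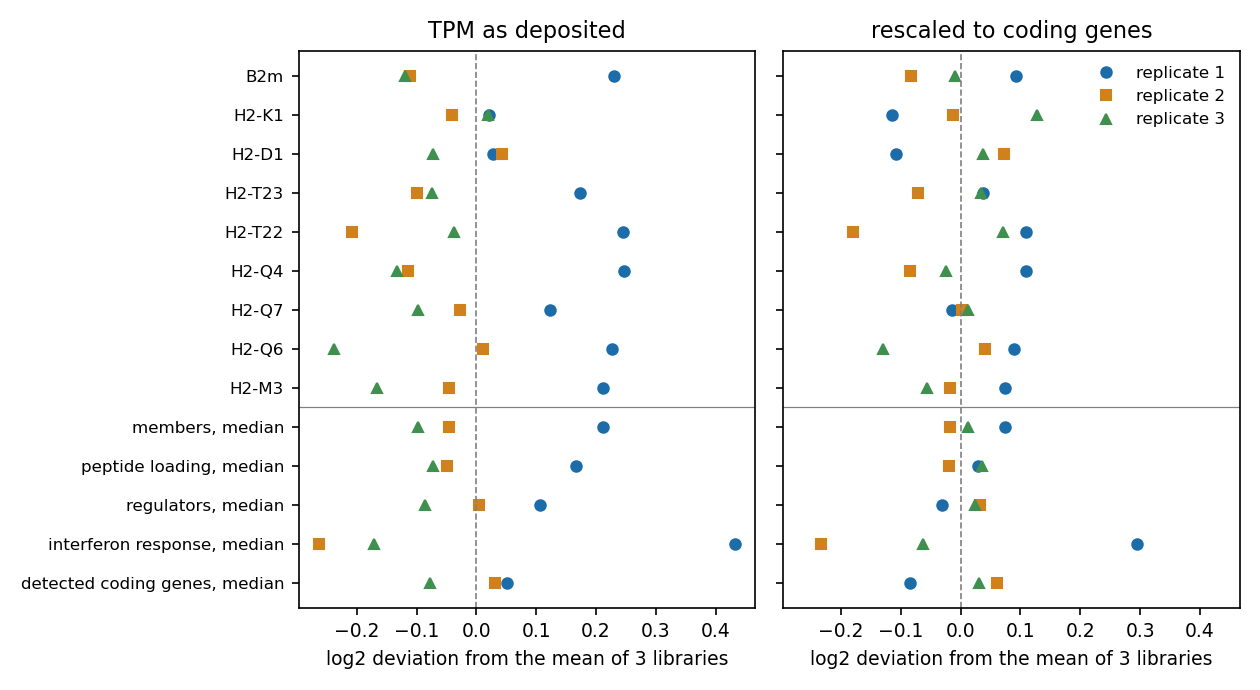
Log2 deviation of each library from the mean of the 3 for each member, and below the line the median deviation of members, of 3 gene lists and of the detected coding genes, on deposited TPM (left) and on the coding scale (right). Replicate 1 lies to the right for most members on the left panel and less so on the right panel, where replicate 1 lies left of 0 for H2-K1, H2-D1 and H2-Q7.

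The genes that load peptides onto class I molecules were present throughout, with 13 of 13 detected. None was called more variable than the trend, beside a share of 1.96% of all genes tested. Tapbp (tapasin, the bridge between the heavy chain and the peptide transporter) had 330 ± 17.4 TPM, Psme2 (a subunit of the proteasome activator) 270 ± 25.4 TPM, the chaperone Calr 229 ± 36.3 TPM and Psmb8 (an immunoproteasome subunit) 191 ± 24.03 TPM (SD, n = 3). The lowest were Erap1, the aminopeptidase that trims peptides in the endoplasmic reticulum, with 20.3 ± 1.32 TPM, and the tapasin relative Tapbpl with 15.8 ± 3.16 TPM. Of the regulators of class I transcription, 12 of 12 were detected and none was called, beside the same share. The interferon regulatory factor Irf1 had 270 ± 98.0 TPM, Irf2 29.7 ± 5.04 TPM and Nlrc5 27.9 ± 4.96 TPM. Rfxank and Nfyb, subunits of the complexes that bind the X and CCAAT elements, were the lowest with 2.70 ± 0.215 and 2.20 ± 0.01 TPM.

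The interferon response genes were detected in 20 of 20 cases. Cxcl10, a chemokine, had 1907, 679 and 656 TPM in replicates 1, 2 and 3, and it was the 1 gene of the list that edgeR called more variable than the trend (adjusted p = 0.00144). That call was lost without replicate 1 (adjusted p = 1.00), without replicate 2 (0.0643) and under the quasi-likelihood test of edgeR (0.926). Rsad2 had 914 ± 481 TPM, Ifit2 838 ± 292 TPM and the transcription factor Irf7 712 ± 172 TPM, while Mx2 and Oas2 had 19.4 ± 4.04 and 13.7 ± 2.95 TPM. For each of the 6, replicate 1 was the highest library, as it was for most class I genes.

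Other class I genes of the H2 complex were mostly at 0. Of 24 symbols listed, H2-Q8, H2-Q9, H2-T9 and H2-L had no annotated gene, so reads from them could not be counted under their own symbol. The other 20 had an annotated gene, and 5 were detected. A further 13 had 0 counts throughout the gene table, where a level below that of 3 counts in a library would be missed, and these have no lowest members to name. H2-T24 had 53.5 ± 5.81 TPM, more than H2-M3. H2-Q5, annotated as a polymorphic pseudogene, had 36.7 ± 12.9 TPM in the gene table, on 804, 1368 and 750 counts in replicates 1, 2 and 3, and 8.02 ± 1.40 TPM in the second table. H2-M2 had 26.2, 26.3 and 11.3 TPM in the same order and was called more variable than the trend by edgeR (adjusted p = 0.00725). The call was lost without replicate 2 (adjusted p = 0.0643), without replicate 3 (1.00) and under the quasi-likelihood test of edgeR (0.914), and H2-M2 was not among the dispersion outliers of DESeq2. H2-T10, the near copy of H2-T22, had 6.91 ± 1.29 TPM and the pseudogene H2-K2 4.43 ± 1.12 TPM. Of 6 class I-like genes elsewhere in the genome, 4 were detected, namely the Fc receptor Fcgrt with 15.7 ± 1.52 TPM, the iron regulator Hfe with 10.45 ± 0.685 TPM, Mr1 with 5.56 ± 0.247 TPM and the lipid-presenting Cd1d1 with 2.24 ± 0.437 TPM. Cd1d2 had 0.0133 ± 0.00577 TPM and Azgp1 had 0 counts in the gene table.

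The cell type given in the labels was checked with markers, since class I genes are expressed by nearly all nucleated cells. All 8 macrophage markers were detected, from Lyz2 with 3262 ± 426 TPM to Mertk with 36.6 ± 4.62 TPM. No marker of T and NK cells, B cells, dendritic cells, neutrophils or stromal and endothelial cells reached 1 TPM in every library. The summed level was 0.06 to 0.40 TPM for 6 T and NK cell markers, highest for Lck (0.137 TPM) with Cd3g at 0 counts. It was 0.04 to 0.08 TPM for 4 B cell markers, highest for Ms4a1 (0.02 TPM) and lowest for Cd79a. It was 0.26 to 0.32 TPM for 4 dendritic cell markers, from Xcr1 (0.0967 TPM) to Flt3 (0.04 TPM). For 4 neutrophil markers it was 0.04 to 0.13 TPM, highest for Mpo (0.0633 TPM) with Ly6g and Retnlg at 0 counts. For 4 stromal and endothelial markers it was 0.76 to 1.08 TPM, highest for Pecam1 (0.63 TPM) with Col1a1 and Col3a1 at 0.01 TPM.

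The genes whose levels followed the members most closely were found by the SD, over the 3 libraries, of the log2 TPM ratio to the member. Among 405 other protein-coding genes of 100 TPM or more, those most like B2m were Itm2b (SD 0.005), Gm2000 and Lamp2 (0.02 each), and Trim30a and Sp100 (0.03 each), beside a median of 0.18 over all 405. Those most like H2-K1 were Ostf1 (0.01), Ctsh and Asah1 (0.02 each), and Ms4a6c and Capzb (0.03 each), beside a median of 0.19. Among 5520 genes of 5 TPM or more, those most like H2-M3 were Rapgef6, Ikbke, Erbin, Ubl7 and Sft2d1 (SD 0.0002 to 0.006), beside a median of 0.17. With 3 libraries the smallest of many such values is a description and carries no test.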

How the data were processed

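A gene table and a pair of transcript tables were deposited per library, all on build mm10 (GRCm38) with GENCODE M21, according to the README notes. The sources used here do not give the programs or whether counting used strand. Expected counts (gene table, first transcript table) and estimated counts (second transcript table) are the authors' read assignments, not normalized, per the file headers. TPM, also the authors', correct for effective length. Deposited percent values give each transcript's part of its gene's TPM. The posterior SD of a count was deposited by the authors as a score in counts.

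The coding scale divides TPM by the summed TPM of nuclear protein-coding genes. The second table was summed by gene. For the variability test, expected counts were rounded and analysed in edgeR 4.0.16 under R 4.3.3 (TMM, filterByExpr); the test was first tried on simulated data, and DESeq2 1.42.0 served as an alternative. Sequences came from RefSeq windows and GENCODE transcripts (Python 3.11.15), and coding sequences were aligned with Biopython 1.88. Features other than annotated genes held 0.0959 to 0.227% of counts and stayed out of library sizes. The libraries share a donor record, so spreads and p-values measure variation between these samples alone and may be technical.

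Members and lists were chosen with earlier results of these data known. Genes were named by a rule: all members, the 4 highest and 2 lowest of each list, the highest and lowest of each marker list, the 5 genes most like B2m, H2-K1 and H2-M3, and member transcripts at 5% or more. A gene that this rule would name is not reported here. H2-K2, A930015D03Rik and further markers at 0 were named after their values were seen. Symbols without an annotated gene were named outside the rule. Alternatives varied the table, unit, threshold, pseudocount, filter, scaling and test and left out each replicate.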

Additional observations from a re-analysis of the deposited data

How the results depend on the processing

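No paired analysis was possible because the libraries form 1 group. The settings over coding transcripts, without H2-K1-215 and for the ratio of H2-K1 to H2-D1 were chosen after seeing the data. All 9 members stayed detected at 0.5 and 5 TPM, on the coding scale and in the second table. Under each alternative 7 or 8 neighbouring pairs were separated, but the order itself differed. On expected counts H2-D1 stood above B2m by a log2 ratio of 0.37 ± 0.17. H2-K1 and H2-D1, and H2-Q6 and H2-Q7, also changed places between scales. Leaving out 1 replicate gave 0.46 to 0.55 for the log2 ratio of H2-K1 to H2-D1. That ratio was 0.35 in the second table, -0.65 on expected counts, -0.44 and -0.35 over coding transcripts (first and second table), -0.42 and -0.34 without H2-K1-215, and -0.22 on counts per effective length of the main coding transcript. The log2 ratio of B2m to summed heavy chains was -0.52 to -0.39 with 1 replicate left out. It was -0.27 in the second table, -1.43 on expected counts, -0.043 and 0.012 over coding transcripts, and -0.065 and -0.0039 without H2-K1-215. The percent of heavy chain TPM in H2-K1 and H2-D1 was 78.1 on expected counts, 76.2 and 76.0 over coding transcripts, and 75.7 and 75.5 without H2-K1-215. The shifts without H2-K1-215, over coding transcripts and on counts follow from the construction of those alternatives, which drop that transcript or the length correction. Counts per effective length of the main coding transcript change the length used, and those shifts also follow from construction. The cause of the others was not tested. The median absolute log2 difference between the transcript tables was 0.910 on TPM as deposited and 0.0757 to 0.0783 with 1 replicate left out. The count of genes more variable than the trend was 240. It was 0 by the quasi-likelihood test, 103 by DESeq2 dispersion outliers and 119, 102 and 82 without replicates 1, 2 and 3. Of the members, 0 were called under any of the 9 alternatives, where at most 1.98% of all genes tested were called. Each member had 3239 counts or more in every library, and the sequence shared among Q and T region genes limits how their reads can be assigned.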
